A study of Mus musculus with 15 samples.

Results

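Smooth muscle contractile genes were followed in the posterior eyecups of mice that carry a mutation in transmembrane protein 135 (Tmem135). The set was 10 genes given by name, namely Acta2, Tagln, Myh11, Cnn1, Smtn, Mylk, Lmod1, Myocd, Actg2 and Synpo2. The genes were named with earlier results of these data known. All 10 were found, each under 1 Ensembl identifier, among the 55421 genes listed in the count tables, and all 10 were among the 18979 genes tested. The eyecup is the pigment epithelium, choroid and sclera left after the neural retina is removed. Mice were 2.5 months old, on the C57BL/6J background and of both sexes, and the sex of each mouse was not labelled. The study lists equal numbers of males and females for WT, more males for FUN025/+ and more females for FUN025/FUN025. No fit here took sex into account. There were 4 wild-type (WT) mice, 6 mice with 1 copy of the Tmem135 FUN025 allele (FUN025/+) and 5 mice with the allele on both chromosomes (FUN025/FUN025), with 1 library per mouse. The mutation is in the germline, so every tissue of these mice carries it. Bulk RNA was measured, so fewer smooth muscle cells and less RNA per cell cannot be told apart.

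Smooth muscle surrounds the arteries of the choroid. Its cells shorten when calcium and calmodulin activate myosin light chain kinase (Mylk), which phosphorylates the light chains of smooth muscle myosin (heavy chain Myh11) and lets it pull on actin filaments made of alpha (Acta2) and gamma (Actg2) smooth muscle actin. Transgelin (Tagln), calponin (Cnn1), smoothelin (Smtn), leiomodin (Lmod1) and synaptopodin 2 (Synpo2) bind these filaments. Myocardin (Myocd) is a coactivator of serum response factor, which binds CArG boxes beside many of these genes. Pericytes and myofibroblasts can also express Acta2, and Synpo2 is made in striated muscle as well, where its protein lies at the Z-disc.

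RefSeq promoter windows of GRCm38.p6 held 6 of the 10 genes (Acta2, Cnn1, Smtn, Mylk, Lmod1 and Synpo2). The windows of Tagln, Myh11, Myocd and Actg2 were not used here. The 250 bases before the start were searched on both strands for the CArG box, 6 bases of A or T between CC and GG. The exact box was in 0 of the 6 windows and in 1.47% of all 32851 windows. With up to 1 of the 6 core bases outside A and T, the box was in 1 of the 6, Acta2, and in 8.59% of all windows. The Acta2 window held it at 2 places, which are shown because Acta2 had the highest level of the set. They lie on the minus strand at chr19:34255438-34255467 and chr19:34255388-34255417, 84 and 34 bases before the RefSeq start, and capitals mark the box:
Acta2, farther box: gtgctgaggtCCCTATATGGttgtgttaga
Acta2, nearer box: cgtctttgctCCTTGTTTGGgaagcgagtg

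The Synpo2 window is shown because Synpo2 was the only one of the 10 genes that passed the test against WT. It holds no CArG box of either kind. It holds a MEF2 box, 4 bases of A or T between CTA and TAG, a motif searched for after these letters were seen, which was in 1 of the 6 windows and in 0.508% of all windows. The 250 bases lie on the minus strand at chr3:123236150-123236399, and capitals mark the MEF2 box:
Synpo2, 250 bases before the start: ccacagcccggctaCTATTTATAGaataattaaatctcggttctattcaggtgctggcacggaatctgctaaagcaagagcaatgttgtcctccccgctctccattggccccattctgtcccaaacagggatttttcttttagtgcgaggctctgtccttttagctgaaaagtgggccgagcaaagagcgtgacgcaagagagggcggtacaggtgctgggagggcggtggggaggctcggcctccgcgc

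WT libraries held 18094977 to 20029919 counts, FUN025/+ libraries 10903183 to 13456349 and FUN025/FUN025 libraries 11053535 to 15038383, so every WT library was deeper than every mutant library. Levels are given as CPM, the counts of a gene brought to a common library size with TMM scaling. Tmem135 itself was 64.0 ± 2.99 CPM (SD, n = 4) in WT, 75.0 ± 7.30 (n = 6) in FUN025/+ and 88.3 ± 4.57 (n = 5) in FUN025/FUN025 mice. Counts per gene do not show which allele was read, so they do not check the labels. Smooth muscle genes were present in every library, with Acta2 at 2975 counts or more and Myh11 at 1824 or more. The pigment epithelium markers of the list used summed to 16922 CPM or more in every library.

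Compared per length, the genes spanned a wide range of levels, led by the thin filament. In WT mice the level in CPM per kilobase of exons was 154 ± 18.0 for Acta2 and 78.5 ± 8.97 for Tagln (SD, n = 4). Mylk at 43.3 ± 5.55, Smtn at 34.6 ± 3.35 and Myh11 at 33.8 ± 7.24 followed, and neighbours among these overlapped between mice. Lmod1 was at 8.71 ± 0.460, and Synpo2 (5.37 ± 0.691), Cnn1 (4.94 ± 1.03) and Actg2 (3.86 ± 0.861) came next, again with overlapping neighbours. Myocd was lowest at 0.278 ± 0.0631, which rested on 11 to 40 counts per library, so counting error is a larger part of its spread than for the other 9 genes. Acta2, Tagln, Lmod1 and Myocd did not overlap with a neighbour in this order. The place of Tagln is uncertain, since most of its exon bases overlap genes on the other strand, as described below. The order was kept in the mutant genotypes apart from Smtn with Myh11 in both, and Synpo2 with Cnn1 in FUN025/FUN025.

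In FUN025/+ eyecups all 10 genes were at a lower fitted level than in WT, by small amounts. Only Synpo2 passed the test, while in FUN025/FUN025 eyecups none did and 7 of the 10 were fitted above WT. The median log2 fold change of the 10 genes was -0.32 in FUN025/+ against WT (range -0.47 to -0.078), and that of all genes tested was -0.0023, of which 50.5% were negative. Synpo2 was 1 call of 10, lower in FUN025/+, beside 13.7% of all genes called and 6.61% called lower. At an unadjusted p under 0.05 there were 3 of 10 (Smtn, Lmod1 and Synpo2), beside 28.8% of all genes. Both shares are near those of all genes, and the genes vary together, so neither count sets the 10 genes apart.

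In FUN025/FUN025 against WT the median was 0.13 (range -0.28 to 0.29), beside -0.0071 for all genes. By edgeR's quasi-likelihood test 0 of 10 genes were called, beside 14.0% of all genes, 2 of 10 (Lmod1 and Synpo2) had an unadjusted p under 0.05, beside 28.6%, and DESeq2 called 1 (Lmod1). The direction of this median rested on 1 animal, since without FUN025/FUN025 mouse 4 it was -0.037, with 4 genes above WT and 6 below. Its size also moved with other animals, to 0.027 without WT mouse 2, 0.22 without WT mouse 3 and 0.19 without FUN025/FUN025 mouse 2, with 7 genes above WT each time. With the mean log2 level of striated muscle markers as a covariate it was 0.012, with 5 genes above WT and 5 below. In FUN025/FUN025 against FUN025/+ 9 of 10 genes were fitted higher, with a median of 0.35 beside -0.0040 for all genes. By edgeR 0 of 10 genes were called, beside 0.522% of all genes, and DESeq2 called 0. At an unadjusted edgeR p under 0.05 there were 4 of 10 (Acta2, Tagln, Myh11 and Cnn1), beside 6.23% of all genes. Acta2, Tagln and Myh11 vary together within genotypes (Pearson's r 0.91 to 0.98), so the 4 are not separate results. Without FUN025/FUN025 mouse 4 the median was 0.24, and without FUN025/+ mouse 4 it was 0.47. The comparisons share mice (the WT mice serve both mutant genotypes), so their values are given side by side and are not independent.

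**Figure D1:**
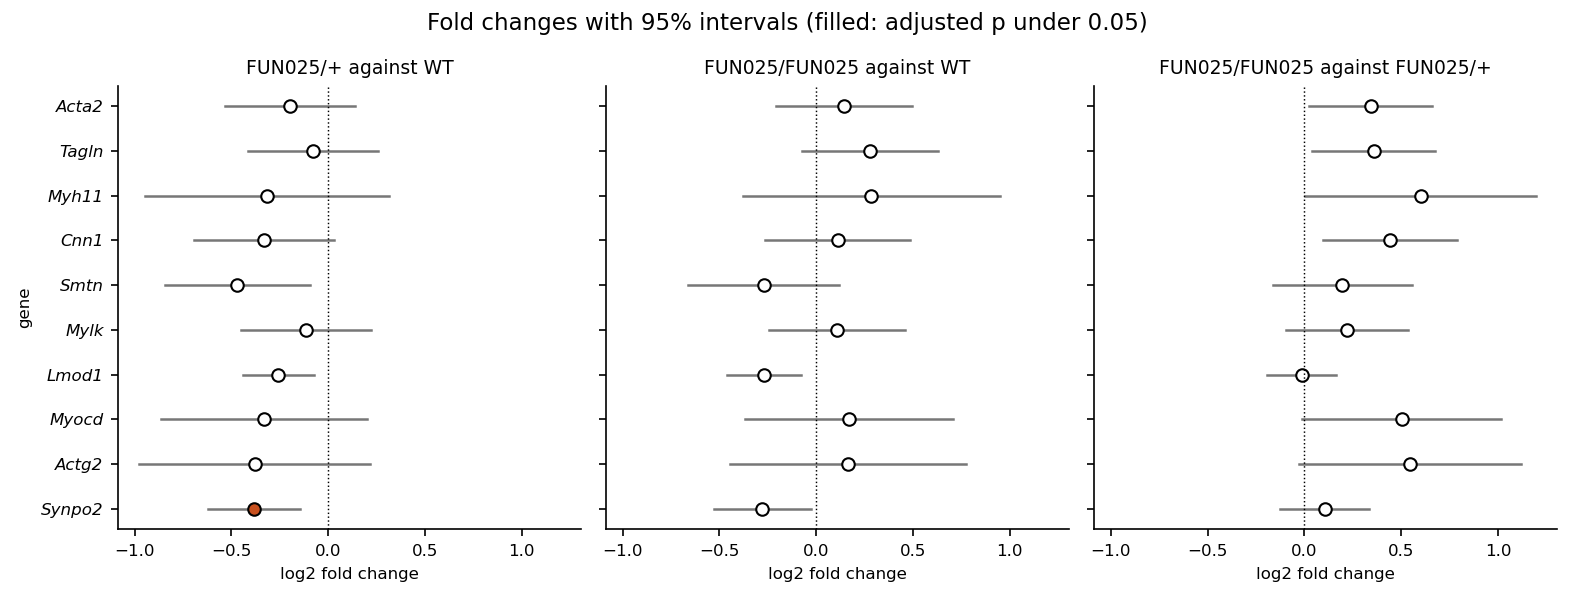
Log2 fold change (horizontal axis) of each of the 10 genes (rows) in the 3 comparisons, with lines for the 95% intervals of edgeR's quasi-likelihood fit; a filled point has an adjusted p under 0.05. Points lie left of 0 for all 10 genes in FUN025/+ against WT, with Synpo2 the only filled one, and right of 0 for 9 of 10 in FUN025/FUN025 against FUN025/+.

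Among the filament proteins, Acta2 (ENSMUSG00000035783, GRCm38 chr19:34241090-34255590, minus strand), the main actin of vascular smooth muscle, was at 349, 339, 380 and 285 CPM in the WT mice. In FUN025/+ mice it ran from 244 through a median of 284 to 408 CPM, and in the FUN025/FUN025 mice it was 315, 312, 329, 477 and 439 CPM. The high values were those of FUN025/+ mouse 4 and FUN025/FUN025 mice 4 and 5, and all 3 genotypes overlapped. Its log2 fold change was -0.20 (SE 0.16) in FUN025/+ against WT (edgeR adjusted p = 0.435), 0.14 (SE 0.16) in FUN025/FUN025 against WT (adjusted p = 0.603) and 0.34 (SE 0.15) in FUN025/FUN025 against FUN025/+ (adjusted p = 0.735).

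Myh11 (ENSMUSG00000018830, chr16:14194535-14291372, minus strand), the myosin heavy chain found nearly exclusively in smooth muscle, spread most among the abundant genes, 3.31-fold over the 15 mice. WT mice held 299, 277, 276 and 176 CPM. FUN025/+ mice ran from 149 through a median of 183 to 335 CPM, and FUN025/FUN025 mice held 234, 224, 212, 495 and 403 CPM. WT mouse 4 lay well under the other WT mice, and the same mutant mice as for Acta2 were high. The log2 fold change was -0.32 (SE 0.29) for FUN025/+ and 0.29 (SE 0.30) for FUN025/FUN025 against WT, with edgeR adjusted p of 0.508 and 0.584. Between the mutant genotypes it was 0.60, the largest of the 10, with a 95% interval from 0.0051 to 1.197 before adjustment and an edgeR adjusted p of 0.793. Without each mouse this value ran from 0.38 to 0.80, and that of FUN025/FUN025 against WT from 0.067 to 0.40.

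Actg2 (ENSMUSG00000059430, chr6:83512905-83536265, minus strand), the actin of visceral smooth muscle, was read by 43 to 146 counts per library. It was at 6.51, 4.09, 7.19 and 6.23 CPM in WT mice and at 3.55, a median of 4.22 and 6.95 CPM in FUN025/+ mice. FUN025/FUN025 mice held 4.33, 3.70, 6.75, 12 and 7.08 CPM, with mouse 4 far above the rest. Its log2 fold change was -0.38 (SE 0.28) and 0.17 (SE 0.29) against WT (edgeR adjusted p = 0.395 and 0.748). Between the mutant genotypes it was 0.55 (SE 0.27, edgeR adjusted p = 0.844), and it ran from 0.24 to 0.70 without each mouse.

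Mylk (ENSMUSG00000022836, chr16:34745210-35002420, plus strand), the kinase that starts contraction, was at 472, 565, 499 and 415 CPM in WT mice. FUN025/+ mice ran from 353 through a median of 438 to 597 CPM, and FUN025/FUN025 mice held 449, 467, 426, 707 and 576 CPM. The genotypes overlapped over most of their range. The log2 fold change against WT was -0.11 (SE 0.16) in FUN025/+ and 0.11 (SE 0.16) in FUN025/FUN025 (edgeR adjusted p = 0.672 and 0.712). Between the mutant genotypes it was 0.22 (SE 0.15, edgeR adjusted p = 0.995). The antisense genes E130310I04Rik and Gm21691 overlap 6.85% of its exon bases, and the library kit does not mark strand, so reads there cannot be told apart.

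**Figure D2:**
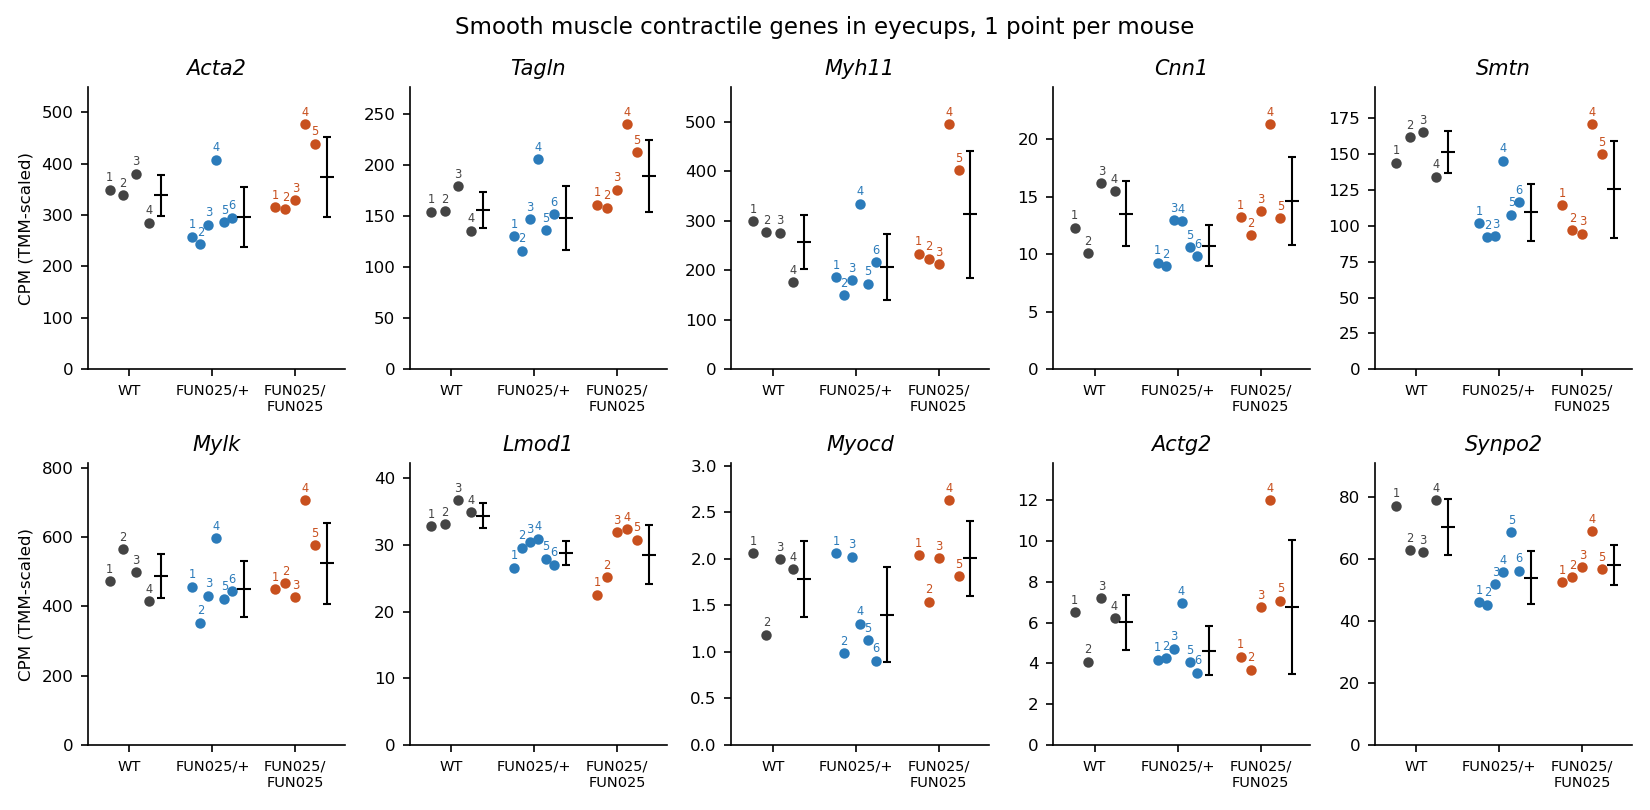
TMM-scaled CPM (vertical axes, from 0) of the 10 genes in each mouse, with mouse numbers beside the points and black bars for the mean and SD of each genotype. FUN025/FUN025 mouse 4 is the highest of the 15 mice for 8 genes, and for Lmod1 all 11 mutant mice lie under all 4 WT mice.

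Of the actin-binding proteins, Synpo2 (ENSMUSG00000050315, chr3:123076519-123236149, minus strand), which bundles actin, was the only gene called, in FUN025/+ against WT. It was at 77.2, 62.9, 62.1 and 79.0 CPM in WT mice and ran from 45.2 through a median of 53.8 to 68.6 CPM in FUN025/+ mice. All FUN025/+ mice but mouse 5 lay under every WT mouse. The log2 fold change in FUN025/+ was -0.38 (SE 0.11, 95% interval -0.62 to -0.14), where the level fell by 23.3%, with an edgeR adjusted p of 0.0347. FUN025/FUN025 mice held 52.4, 54.2, 57.4, 69.0 and 56.7 CPM, with mouse 4 inside the WT range and a log2 fold change of -0.28 (SE 0.12, edgeR adjusted p = 0.129). Between the mutant genotypes the difference was 0.10 (SE 0.11, adjusted p = 0.9996).

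Of 31 striated muscle markers tested, 7 were called lower in FUN025/+ and 5 in FUN025/FUN025 against WT, with 0 higher. They summed to 8091 to 14305 CPM in WT, 4506 to 10932 in FUN025/+ and 6519 to 8039 in FUN025/FUN025 libraries. In WT mice 1 to 4 Synpo2 was at 77.2, 62.9, 62.1 and 79.0 CPM, and the striated muscle markers summed to 12266, 8091, 9454 and 14305 CPM. WT mice 1 and 4 were thus the highest WT mice for both. FUN025/+ mouse 5, where Synpo2 was highest of its genotype, also had the highest striated sum of its genotype (10932 CPM). FUN025/FUN025 mouse 4, highest of its genotype for Synpo2, was not the highest for the striated sum (7461 CPM, beside 8039 CPM in mouse 3). With the mean log2 level of these markers as a covariate, the Synpo2 log2 fold change was -0.093 (edgeR adjusted p = 0.733) in FUN025/+ and -0.013 in FUN025/FUN025. The covariate itself differs by genotype, so the genotype and the striated muscle RNA cannot be told apart in this fit. The edgeR adjusted p was also over the threshold with no filter on low counts (0.0801) and with only WT and FUN025/+ mice in the fit (0.0683), and it reached up to 0.136 without WT mouse 1 or 4 or without FUN025/+ mouse 1, 2 or 3.

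Lmod1 (ENSMUSG00000048096, chr1:135324807-135368065, plus strand), which nucleates actin filaments in smooth muscle, had the narrowest range of the 10 genes over the 15 mice, 1.63-fold. WT mice held 32.8, 33.1, 36.7 and 34.9 CPM and FUN025/+ mice ran from 26.6 through a median of 28.8 to 30.9 CPM. FUN025/FUN025 mice held 22.5, 25.2, 31.9, 32.4 and 30.8 CPM. Lmod1 alone of the 10 genes lay wholly under WT in FUN025/+ mice, beside 10.9% of all genes not overlapping in either direction. It alone did so in FUN025/FUN025 mice too, beside 14.8% not overlapping in either direction. The share of all genes wholly under WT in both genotypes was not counted. The log2 fold change of Lmod1 was -0.26 (SE 0.088) in FUN025/+ and -0.27 (SE 0.091) in FUN025/FUN025. The edgeR adjusted p was 0.0573 and 0.0542, just over the threshold of 0.05. Over all other settings and all left-out mice the adjusted p was 0.0213 to 0.389 for FUN025/+ and 0.0313 to 0.297 for FUN025/FUN025. Between the mutant genotypes the difference was -0.014 (95% interval -0.19 to 0.16), and 0 of 10 genes did not overlap there, beside 1.12% of all genes.

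Smtn (ENSMUSG00000020439, chr11:3517523-3540612, minus strand), a marker of contractile smooth muscle, had the largest difference in FUN025/+ eyecups. WT mice held 144, 162, 165 and 134 CPM, and FUN025/+ mice ran from 92.0 through a median of 105 to 145 CPM. All FUN025/+ mice but mouse 4 lay under every WT mouse. The log2 fold change was -0.47 (SE 0.17) with an edgeR adjusted p of 0.0919, which became 0.0439 without FUN025/+ mouse 4. FUN025/FUN025 mice held 115, 96.9, 94.6, 171 and 150 CPM, so mice 1 to 3 lay under WT and mouse 4 above it, with a log2 fold change of -0.27 (SE 0.18, edgeR adjusted p = 0.354). Reads on 16.3% of its exon bases also lie in Gm11946 or Gm11947 on the other strand, and Gm11946 was at 44.3 ± 6.56, 40.0 ± 8.38 and 44.4 ± 11.97 CPM in WT, FUN025/+ and FUN025/FUN025 mice (SD).

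Tagln (ENSMUSG00000032085, chr9:45929619-45936058, minus strand), an early marker of the smooth muscle lineage, is the gene whose count is least certain. Other genes on the opposite strand, the antisense Gm48529 and Pcsk7, overlap 67.9% of its exon bases. Gm48529 counts were 0.956 to 1.04 times the Tagln counts in the 15 libraries, and without strand the reads of the pair cannot be told apart. As counted, Tagln was at 154, 155, 179 and 136 CPM in WT mice, from 116 through a median of 141 to 206 CPM in FUN025/+ mice and at 161, 158, 176, 240 and 212 CPM in FUN025/FUN025 mice. On these counts the log2 fold change was -0.078 (SE 0.16) and 0.28 (SE 0.16) against WT (edgeR adjusted p = 0.784 and 0.283) and 0.36 (SE 0.15) between the mutant genotypes (adjusted p = 0.697).

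Cnn1 (ENSMUSG00000001349, chr9:22099216-22109630, plus strand), an inhibitor of the myosin ATPase, was at 12.3, 10.1, 16.2 and 15.5 CPM in WT mice. FUN025/+ mice ran from 8.93 through a median of 10.2 to 12.9 CPM and FUN025/FUN025 mice held 13.2, 11.6, 13.7, 21.3 and 13.2 CPM. FUN025/+ mice were mostly low and FUN025/FUN025 mouse 4 stood alone at the top. The log2 fold change was -0.33 (SE 0.17) for FUN025/+ and 0.11 (SE 0.18) for FUN025/FUN025 against WT (edgeR adjusted p = 0.211 and 0.727). At 0.44 (SE 0.16) between the mutant genotypes it had the smallest unadjusted p of the set there, 0.0151 by edgeR, and an adjusted p of 0.565.

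Myocd (ENSMUSG00000020542, chr11:65176561-65269989, minus strand), the coactivator, was at 2.06, 1.18, 1.998 and 1.89 CPM in WT mice. FUN025/+ mice ran from 0.907 through a median of 1.22 to 2.06 CPM, and FUN025/FUN025 mice held 2.04, 1.54, 2.01, 2.63 and 1.81 CPM. Its log2 fold change was -0.33 (SE 0.25) and 0.17 (SE 0.26) against WT and 0.50 (SE 0.25) between the mutant genotypes, with edgeR adjusted p of 0.408, 0.709 and 0.826. Its partner Srf, singled out after its values were seen, was at 37.5, 33.9 and 36.6 CPM in WT, FUN025/+ and FUN025/FUN025 mice (edgeR adjusted p = 0.259 and 0.821 against WT).

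**Figure D3:**
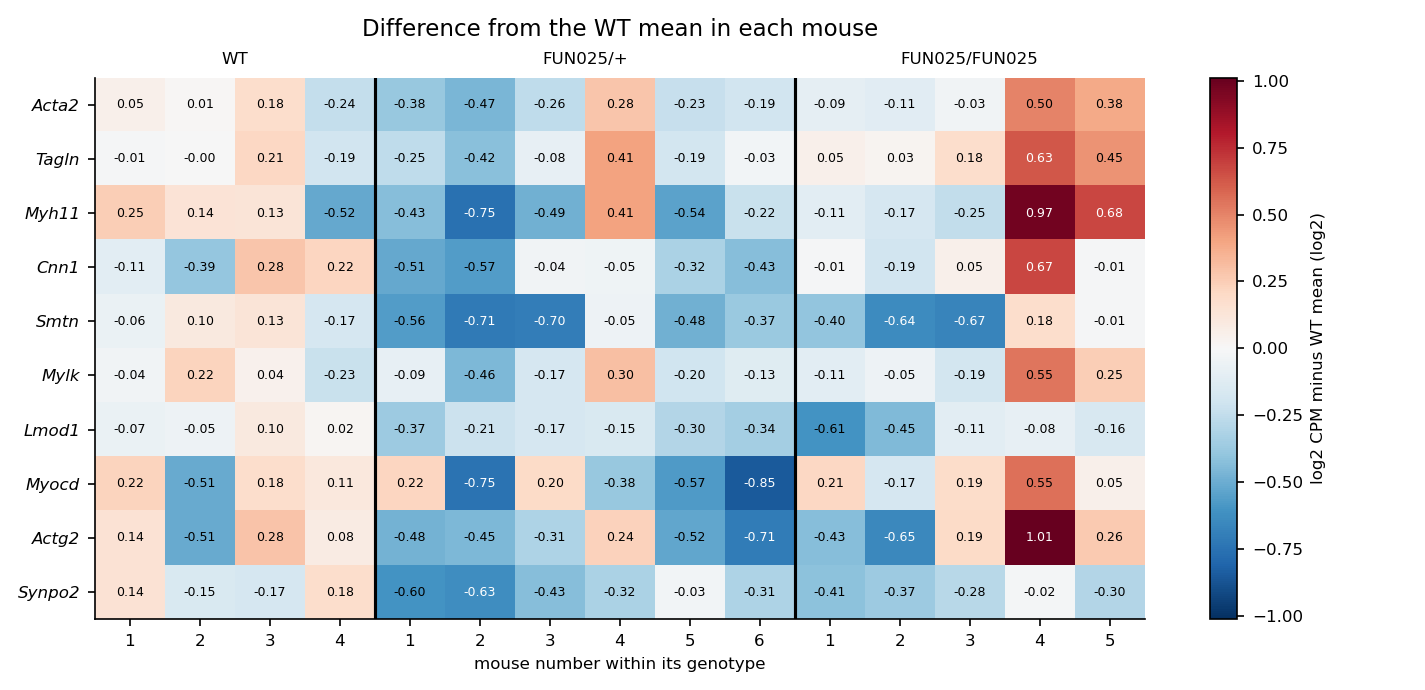
Log2 CPM of each gene (rows) in each mouse (columns, grouped by genotype) minus the WT mean of that gene, printed in each cell and coloured from blue (lower) to red (higher). FUN025/+ mice are blue in most rows except mouse 4, and FUN025/FUN025 mouse 4 is red in 8 of 10 rows.

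Mice of the same genotype differed from each other along a shared axis. The mean log2 CPM of the 10 genes, relative to the WT mean, was -0.11 to 0.14 in WT mice, -0.54 to 0.068 in FUN025/+ mice and -0.28 to 0.50 in FUN025/FUN025 mice. The highest value in FUN025/+ and the highest in FUN025/FUN025 were those of mouse 4 of each. FUN025/+ mice 2, 5 and 6 had 0 of the 10 genes above the WT mean. After the mean of each genotype was subtracted, the 45 pairs of genes had a median Pearson's r of 0.55 over the 15 mice (range 0.040 to 0.98) and a median Spearman rank correlation of 0.50. Leaving out the 2 mice farthest from the median of the first gene of a pair, the median r was 0.23 (range -0.18 to 0.95), a value that the narrower range of that gene also lowers.

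The 10 pairs among Acta2, Tagln, Myh11, Smtn and Mylk, 5 genes grouped after their values were seen, had r of 0.87 to 0.98, rank correlations of 0.81 to 0.95, and r of 0.73 to 0.95 without those mice. The other 35 pairs had a median r of 0.43, and of 0.16 without them. The points of each correlation share libraries, tissue pieces and scaling, and the r values are a description without a test. Myocd (median r 0.16 with the other 9 genes) and Synpo2 (0.31) followed the set least, and Myocd had few counts.

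**Figure D4:**
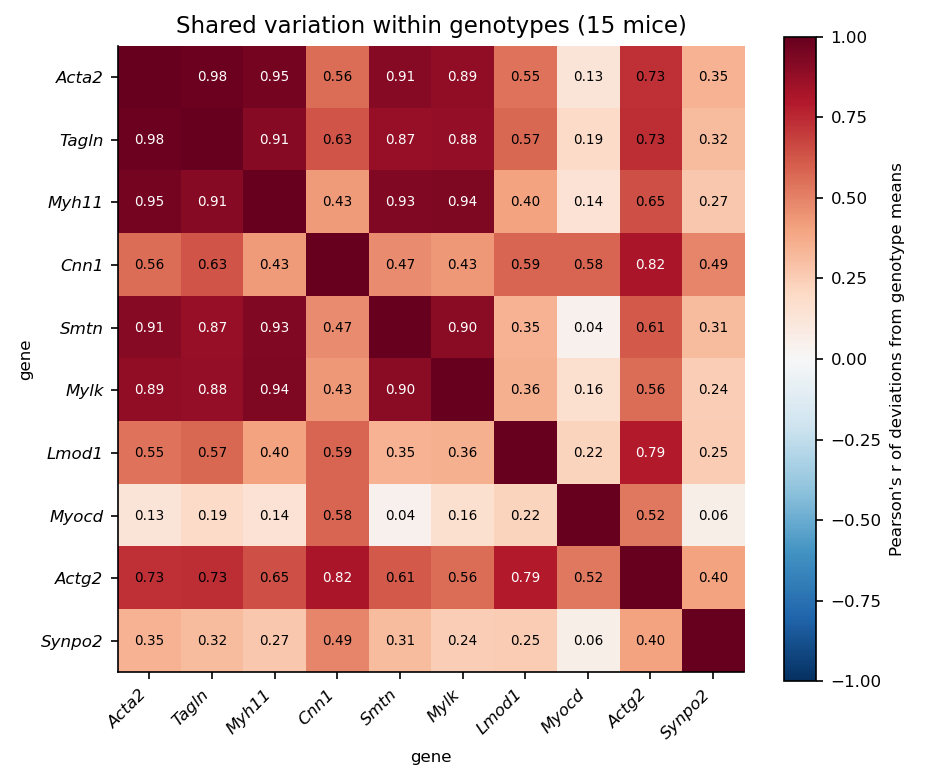
Pearson's r of the deviations of log2 CPM from the genotype means, for each pair of genes over 15 mice, from blue (-1) through white to red (1). Acta2, Tagln, Myh11, Smtn and Mylk form the darkest block (0.87 or more in each pair), and Myocd and Synpo2 the palest rows.

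Mouse 4 of FUN025/FUN025, the highest for 8 of the 10 genes, had pericyte markers at 1114 CPM in sum, the lowest of the 15 libraries, beside 1216 to 1374 CPM in WT. Its endothelial markers summed to 1192 CPM, also the lowest, beside 1639 to 1944 CPM in WT. Its striated muscle sum of 7461 CPM was inside the range of its genotype. FUN025/+ mouse 4 had 1324 CPM of pericyte markers and 6002 CPM of striated markers, both inside the range of its genotype. FUN025/+ mouse 6, with 0 of the 10 genes above the WT mean, had 1131 CPM of pericyte markers and 1286 CPM of endothelial markers. By mean log2 CPM its pericyte markers were the lowest of the 15 libraries, at 5.09 beside 5.13 in FUN025/FUN025 mouse 4. The pericyte sums lean on Rgs5, the most abundant of these markers. The part of piece-to-piece differences in tissue was not tested.

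The wider contractile pathway was taken from 4 lists, whose counts stand beside the 13.7% of all genes called in FUN025/+ and the 14.0% called in FUN025/FUN025 against WT. Of 20 further contractile apparatus genes, 1 rose and 7 fell in FUN025/+, and 3 rose and 7 fell in FUN025/FUN025 against WT, with medians of -0.32 and -0.19. Among the called genes of this list, the largest falls were those of Hspb6, Des and Ldb3. Hspb6, a small heat shock protein of muscle, was at 85.7 ± 18.5 CPM in WT, 53.7 ± 9.04 in FUN025/+ and 55.7 ± 7.60 in FUN025/FUN025 (SD). The log2 fold changes were -0.68 and -0.60 for the intermediate filament desmin (Des) and -0.60 and -0.60 for the Z-disc protein gene Ldb3. The edgeR adjusted p of the 3 genes ran from 0.00674 to 0.0465. These 3 genes are also made in striated muscle, whose markers had medians of -0.64 and -0.54 in the same comparisons with 7 and 5 of 31 lower and 0 higher, and the part of striated muscle in their falls was not tested.

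The genes of this list that rose, named here outside the rule, were Csrp1, a LIM protein of smooth muscle (0.25 and 0.29), and in FUN025/FUN025 also Itga8, an integrin chain of smooth muscle and other mesenchyme (0.55, from 18.7 ± 2.05 in WT to 27.3 ± 2.47 CPM), and the light chain gene Myl6 (0.18).

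Of 20 calcium handling and ion channel genes, 1 rose and 2 fell in FUN025/+, and 2 fell in FUN025/FUN025, shares near the 13.7% and 14.0% of all genes. Cacna1h, a T-type calcium channel subunit, was at 12.8 ± 2.76 CPM in WT, 8.12 ± 1.37 in FUN025/+ and 4.95 ± 0.844 in FUN025/FUN025 mice (SD). Its log2 fold change was -0.66 and -1.38 against WT (edgeR adjusted p = 0.00672 and 1.72e-05), and it was the only gene of the 20 that differed between the mutant genotypes (-0.71, edgeR adjusted p = 0.0392). The potassium channel gene Kcna5 fell by 0.64 and 0.88 on the log2 scale, and the calcium release channel gene Itpr1 rose by 0.25 in FUN025/+. Channel genes such as these are used by many cell types of the eyecup.

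Of 22 receptor and messenger genes, 1 rose and 1 fell in FUN025/+, and 1 rose and 2 fell in FUN025/FUN025, at or under the 13.7% and 14.0% of all genes. Prkg1, the kinase that relaxes smooth muscle on cyclic GMP, rose by 0.32 and 0.41 (edgeR adjusted p = 0.0193 and 0.00588). Gna11, a G protein that couples constrictor receptors, fell by 0.16 and 0.18, and the natriuretic peptide receptor gene Npr1 fell by 0.30 in FUN025/FUN025. Npr1 was also lower in FUN025/FUN025 than in FUN025/+ (-0.36, edgeR adjusted p = 0.0140). The medians were 0.0090 and -0.089.

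Of 29 regulators of smooth muscle genes, 1 rose and 3 fell in each mutant genotype, again near the 13.7% and 14.0% of all genes. Pdgfb, a growth factor for mural cells, fell by 0.33 and 0.41 on the log2 scale, and Rbpj, the transcription factor of Notch signalling, rose by 0.22 and 0.23. Mef2d fell by 0.18 and 0.16, and Tgfb1 fell by 0.32 in FUN025/FUN025. The edgeR adjusted p of these 7 values ran from 0.0189 to 0.0436, and the medians of the 29 were -0.043 and -0.037.

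**Figure D5:**
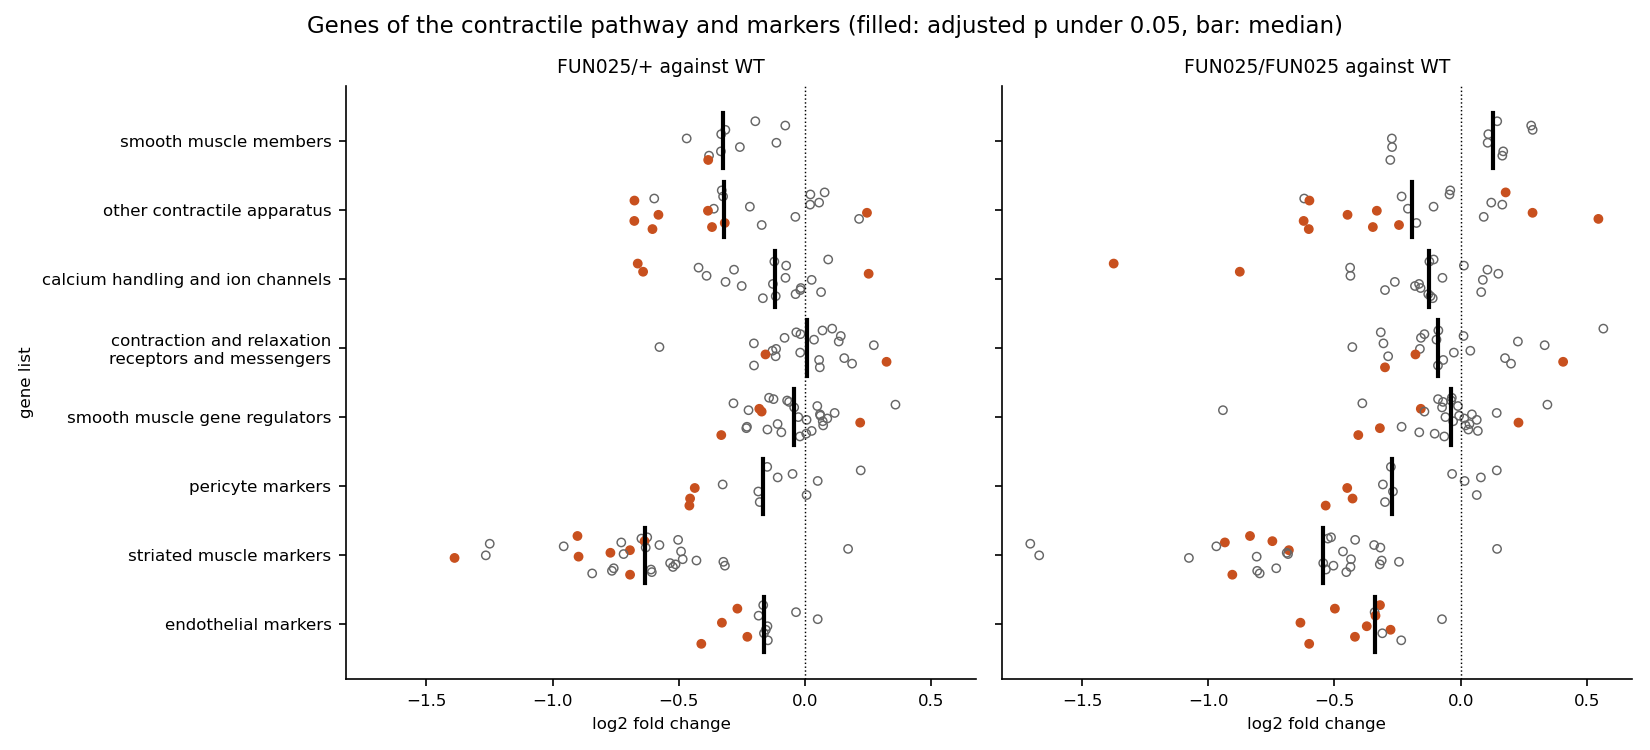
Log2 fold change (horizontal axis) of every tested gene of 8 lists (rows) in FUN025/+ and FUN025/FUN025 against WT; filled points have an edgeR adjusted p under 0.05 and the black bar is the median of the list. The 10 smooth muscle genes lie left of 0 in FUN025/+ and on both sides of it in FUN025/FUN025, while striated muscle markers lie left of 0 in both, with 1 exception in each.

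Markers of the cells beside smooth muscle passed the test in part, again beside 13.7% of all genes called in FUN025/+ and 14.0% in FUN025/FUN025. Of 12 pericyte markers 0 were higher and 3 lower in each mutant genotype (Mcam, Vtn and Ndufa4l2), and the most abundant, Rgs5, was at 665, 775 and 735 CPM in WT, FUN025/+ and FUN025/FUN025 mice without passing the test. Of 12 endothelial markers 4 were lower in FUN025/+ and 8 in FUN025/FUN025, with 0 higher. Their summed level was 1639 to 1944 CPM in WT, 1286 to 1767 in FUN025/+ and 1192 to 1468 in FUN025/FUN025 libraries. Of the remaining lists, 1 of 12 fibroblast and scleral markers was lower in FUN025/+, 1 of 10 pigment epithelium markers was higher in FUN025/FUN025, and Schwann cell markers had 1 and 2 of 8 lower. Melanocyte markers (8 tested) had 0 calls against WT, with medians of 0.050 and 0.0012. Of 13 photoreceptor markers (1 more on the list is not reported here) all were negative in both mutant genotypes, with median log2 fold changes of -1.77 in FUN025/+ and -1.82 in FUN025/FUN025, and 0 and 1 of them were called lower. They summed to 693 to 1966 CPM in WT, 596 to 986 in FUN025/+ and 564 to 786 in FUN025/FUN025 libraries, so the genotypes overlapped, and WT mouse 2 stood apart from the other WT mice (693 to 997 CPM). Without it the medians were -0.78 and -0.79, with 12 and 13 of the 13 negative. Lens and cornea markers (7 tested) were positive in both, with medians of 2.19 and 3.13 and 0 calls, and summed to 84.3 to 192 CPM in WT, 77.4 to 1755 in FUN025/+ and 134 to 314 in FUN025/FUN025 libraries. Cryga, a lens crystallin, was at 0 in every library. The part of these cells and tissues in the smooth muscle values was not tested.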

How the data were processed

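RNA was sequenced from the eyecups of 15 mice (4 WT, 6 FUN025/+ and 5 FUN025/FUN025) after poly(A) selection, with NEBNext Ultra libraries and paired HiSeq reads. The authors deposited raw whole-number read counts per Ensembl gene for each library, without normalization. The submitters' processing notes name FastQC 0.11.8, Trimmomatic 0.39, HISAT2 2.1.0, SAMtools and featureCounts 2.0.0 on GRCm38; the strand setting is not given in the sources used here. Reads with a shared or overlapping source can thus be counted for either gene.

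Libraries were grouped by the genotype in their labels. Symbols and positions came from GENCODE M21, which holds 55240 of the 55421 listed genes. After the study's methods, the 15% of genes of lowest variance were removed and edgeR was used; the study's threshold on low counts is not given, so filterByExpr stood in for it and left 18979 genes. TMM scaling (factors 0.976 to 1.02), the quasi-likelihood test of edgeR 4.0.16 with robust dispersion, 1 fit of all 15 mice and Benjamini-Hochberg adjustment over all genes tested were used in R 4.3.3, with a threshold of 0.05. Log2 CPM used a prior count of 2. Libraries held 10903183 to 20029919 counts, at which 3 counts are 0.150 to 0.275 CPM; intervals and floors cover counting error or the spread between mice only. No pair of libraries of a genotype held identical counts.

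The 10 genes and all gene lists were chosen with earlier results of these data known. Named are the 10 genes, from each of 4 pathway lists (a further list is not reported here) at most 3 called genes of largest change per comparison, the 8 other protein-coding genes most correlated with the mean of the 10, Tmem135 and defining markers. On simulated counts for 18730 genes with 200 changed 2-fold in FUN025/FUN025, the test recovered 82.5% of them against WT and 83.0% against FUN025/+, and called 0 genes in FUN025/+ against WT. Alternatives were DESeq2 1.42.0 (size factors and Wald test), other filters, a fit of each pair of genotypes alone, a block for the replicate number, a striated muscle covariate, thinning to the smallest library, a GC offset and leaving out each mouse.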

Additional observations from a re-analysis of the deposited data

Results flagged for a closer look

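In 4 of the 30 combinations of gene and genotype, 1 mouse stood far from the others of its genotype, by Dixon's criterion on CPM; chance alone flags about 1 in 20. In FUN025/+ mouse 4, Acta2 was at 408 CPM where the other 5 mice held 244 to 295, Myh11 at 335 CPM where the others held 149 to 216, and Actg2 at 6.95 CPM where the others held 3.55 to 4.72. In FUN025/FUN025 mouse 4, Cnn1 was at 21.3 CPM where the others held 11.6 to 13.7. The 3 values of FUN025/+ mouse 4 come from 1 library and from genes that vary together.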

How the results depend on the processing

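Of 750 values of the 10 genes under other settings and left-out mice, 721 kept their direction and their side of the threshold. This count says little about the 1 call of the main fit, since all other results keep their side by staying uncalled. Keeping the genes of lowest variance gave the same 18979 genes and the same numbers of calls. The Synpo2 call was lost with the striated muscle covariate, with no filter and with only the 2 genotypes compared. It was also lost when WT mouse 1 or 4 or FUN025/+ mouse 1, 2 or 3 was left out. In FUN025/+ against WT the 1 call among the 10 became 2 with only the 2 genotypes compared (Smtn and Lmod1) and 0 with the striated muscle covariate, stayed 1 with no filter on low counts but was Lmod1 and not Synpo2, and ranged from 0 to 2 without each mouse. In FUN025/FUN025 against WT the 0 calls became 1 with DESeq2's Wald test and 1 with no filter on low counts (Lmod1 in each), and ranged from 0 to 1 without each mouse. Over all genes, the main fit called 2600 in FUN025/+ and 2666 in FUN025/FUN025 against WT. The fit with the striated muscle covariate called 826 and 1211. Without WT mouse 4 there were 1433 and 1519 calls, the lowest of the ranges over left-out mice, which reached 2719 and 2697. DESeq2's Wald test gave 171 in place of 99 between the mutant genotypes. Against WT in FUN025/FUN025, Mylk was -0.054 and Myocd -0.17 with the striated covariate, and without each mouse Cnn1 ran from -0.057 to 0.22, Mylk from -0.017 to 0.19 and Actg2 from -0.14 to 0.32, each lowest without mouse 4. Lmod1 between the mutant genotypes was 0.024 after thinning and ran from -0.059 to 0.065 without each mouse. In FUN025/+ against WT, Mylk ran from -0.30 to -0.056 over the other settings, Myh11 from -0.60 to -0.27 and Myocd from -0.74 to -0.19. The cause of these changes was not tested.

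The labels give the genotypes shared replicate numbers, but these are different animals. Deviations of same-numbered mice correlated at -0.25 on average between WT and FUN025/+ and -0.067 between WT and FUN025/FUN025 (4 pairs each), and 0.055 between FUN025/+ and FUN025/FUN025 (5 pairs). With the number as a replicate block, calls among the 10 genes were 1, 2 and 0 in FUN025/+ against WT, FUN025/FUN025 against WT and FUN025/FUN025 against FUN025/+; the 2 were Lmod1 and Synpo2. Depth limited Myocd most, with 11 counts in its lowest library.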

Other observations

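Outside the lists, the 8 protein-coding genes whose log2 CPM followed the mean of the 10 genes most closely over the 15 mice were Pbxip1 (Pearson's r 0.87), Nptx2 (0.87), Ptn (0.85), Nkd1 (0.84), Tacr3 (0.83), Abcc2 (0.82), Robo1 (0.82) and Ces5a (0.81). Their Spearman rank correlation was 0.64 to 0.84, and leaving out the 2 mice farthest from the median of that mean gave r of 0.59 to 0.82. They were picked from all genes for this value, so the r values are a description. Ptn, which encodes the growth factor pleiotrophin, was at 135, 118 and 153 CPM in WT, FUN025/+ and FUN025/FUN025 mice. Tacr3, the neurokinin B receptor, was at 5.14, 3.85 and 7.98 CPM, and Robo1, a guidance receptor, at 27.0, 24.5 and 28.6 CPM. Of the 8, only Pbxip1 passed the test in a comparison, being lower in FUN025/+ than in WT (360 and 326 CPM, log2 fold change -0.14, edgeR adjusted p = 0.0485).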
